A study of Homo sapiens with 8 samples.

Results

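Microtubules are built from dimers of alpha- and beta-tubulin, whereas gamma-tubulin nucleates them as part of a ring complex and delta- and epsilon-tubulin are known for their part in forming the triplet microtubules of centrioles. Tubulin chains fold on the cytosolic chaperonin TRiC (also called CCT), which receives many of them from the hexameric co-chaperone prefoldin (PFD), and the tubulin cofactors then assemble the alpha-beta dimer. The 7 genes described here are the alpha-tubulins TUBA1A, TUBA1B, TUBA1C and TUBA4A, the gamma-tubulin TUBG1, the delta-tubulin TUBD1 and the epsilon-tubulin TUBE1. They are 7 of the 60664 genes of both count tables, taken from these tubulin families with no threshold on their values. TUBA3C and TUBG2, of the same families, are given beside them.

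The study sequenced ribosome-protected fragments (RPFs), the stretches of mRNA that a translating ribosome shields from nuclease, in U2OS cells, a human osteosarcoma line. In the CCT4-Halo cells the TRiC subunit CCT4 carried a HaloTag, and in the PFDN4-Halo cells the prefoldin subunit PFDN4 did. From each line, RPFs of total ribosomes (input) and of ribosomes recovered through the tag (pulldown) were sequenced in 2 replicates, giving 4 groups and 8 libraries. All 8 libraries came from cells treated with 100 µg/ml cycloheximide for 1 min and crosslinked with 2 mM DSP for 30 min. No untagged cells were among the samples used here, and the inputs served as the background of each pulldown.

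The libraries held 9523128 to 32637658 counts, and the 7 genes together took 0.0386% to 0.0784% of them. Among osteosarcoma markers, COL1A1, SPARC, VIM and RUNX2 were read in every library at 30.2 CPM (the gene's counts scaled to a common library size) or more, while the osteoblast factor SP7 did not exceed 0.314 CPM and COL1A2 did not exceed 1.96 CPM. ALPL, of the same list, read 2.436 to 3.392 CPM in the TRiC libraries and 26.09 to 43.1 CPM in the PFD libraries. The leukocyte markers CD3E and PTPRC stayed at 0.197 CPM or less. Among epithelial markers, CDH1 did not exceed 0.75 CPM, EPCAM ranged from 0.105 to 18.2 CPM and KRT8 from 41.8 to 242 CPM. The endothelial markers CDH5 and PECAM1 reached at most 8.17 and 2.67 CPM. The PFD inputs stood apart from the other 6 libraries in 1 respect that touches the tubulins. Of 17 coding genes whose exon bases are all covered by opposite-strand exons, 6 had counts in PFD input replicate 1 and 4 in replicate 2, led by ZNF593 with 579 and 285 counts. All 17 were at 0 in the PFD pulldowns and in the TRiC libraries. In a count that ignores strand, STAR assigns a read to no gene where it lies on exons of more than 1 gene. The strand column kept by the authors is not given in the sources used here.

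Which reads could be counted differed greatly among the tubulins, because the authors kept only reads that align to 1 place in the genome. The coding sequences of TUBA1A and TUBA1B were identical at 97.2% of aligned bases, those of TUBA1B and TUBA1C at 96.8%, and those of TUBA1A and TUBA1C at 95.9%. TUBA4A was 84.4% to 85.7% identical to these 3 genes.

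The start and the end of the coding sequence carry known features of alpha-tubulin. The first 4 codons encode the residues by which the factor TTC5 recognizes a nascent tubulin chain when excess tubulin triggers decay of tubulin mRNAs. They are shown in capitals with the bases that follow (hg38, GENCODE release 44 models, first 30 coding bases), to set TUBA4A beside the minor tubulins, whose first codons encode other residues after the start.
TUBA4A start: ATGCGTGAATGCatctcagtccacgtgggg
TUBG1 start: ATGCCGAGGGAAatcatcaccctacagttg
TUBD1 start: ATGTCAATTGTAacagtgcaacttggtcag
TUBE1 start: ATGACCCAGTCGgtggtcgtacaggtcggc
The last 30 coding bases encode the acidic tail that faces out from the microtubule, and the capitals mark the last codon and the stop codon.
TUBA1C end: gacggagaggatgagggtgaagagTATTAA
TUBA4A end: tatgaggacgaggatgagggagaaGAATAA
TUBA1C ends in a tyrosine codon, the residue that the vasohibins remove and the ligase TTL puts back, whereas TUBA4A encodes no terminal tyrosine.

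Every 28-base window of each coding sequence, about the length of a ribosome footprint, was searched on both strands of the 25 primary hg38 sequences and in the annotated transcripts. A window found once stands for a read that could be counted. For TUBA1B, 159 of 1329 windows were unique (11.96%). TUBA1A had 325 unique windows of 1329 (24.45%) and TUBA1C had 323 of 1323 (24.41%). TUBA1B shared 62.5% of its windows with TUBA1A, 62.3% with TUBA1C and 45.9% with the processed pseudogene TUBAP2. Of the windows of these 3 genes, 586 occurred in all 3, in 14 runs. The others were easier to tell apart, with 76.14% of windows unique in TUBA4A, 98.8% in TUBD1 and 91.43% in TUBE1. TUBG1 lay between them at 48.38%, having 45.2% of its windows in common with its near copy TUBG2. Counts of TUBA1A, TUBA1B, TUBA1C and TUBG1 are therefore counts of the part of each gene that is distinct.

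Overlap with opposite-strand exons differed as well. TUBA1B (hg38 chr12:49127782-49131397, minus strand) lies under the antisense transcript TUBA1B-AS1 for 44% of its exon bases and 68.1% of its coding bases. TUBA1B-AS1 itself had 0 to 16 counts per library. Of the 159 unique windows of TUBA1B, 57 were clear of opposite-strand exons, nearly all in the second of 10 equal steps along the coding sequence, where 40.6% of windows were unique and clear. TUBA1C (chr12:49188736-49274600, plus strand) had 41.4% of its coding bases under the exons of a long non-coding RNA, ENSG00000258232, that had at most 2 counts in a library, and 104 of its 323 unique windows were clear. TUBA1A (chr12:49184686-49189080, minus strand) overlaps TUBA1C outside nearly all of its coding bases, with 0.2257% of its windows affected. TUBG1 (chr17:42609641-42615238, plus strand) had 6.095% of windows under exons of RETREG3, which had 363 to 2128 counts. TUBA4A (chr2:219249710-219277902, minus strand) overlaps STK16 and TUBA4B in 17% and 3.03% of its exon bases but in none of its coding windows. STK16 had 129 to 606 counts and TUBA4B at most 11. TUBD1 (chr17:59859479-59892945, minus strand) and TUBE1 (chr6:112070663-112087529, minus strand) had no exon base under an opposite-strand exon.

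TUBA1B was the alpha-tubulin with the highest level in the inputs of both lines. In CPM scaled by TMM over all 8 libraries it read 147.6 and 152.6 in the TRiC inputs and 312.6 and 332 in the PFD inputs. TUBA1C, another broadly expressed isotype, read 89.97 and 91.94 CPM in the TRiC inputs and 204 and 195 in the PFD inputs. TUBA1A, known from brain development and its malformations, read 76.66 and 83.21 CPM in the TRiC inputs and 106.2 and 89.71 in the PFD inputs. TUBA4A, known from platelets and other mature cells, was far lower in the TRiC inputs, at 13.17 and 13.54 CPM, than in the PFD inputs, at 83.86 and 59 CPM.

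Among the minor tubulins TUBG1 had the highest level, at 76.3 and 77.72 CPM in the TRiC inputs and 48.89 and 62.19 CPM in the PFD inputs. TUBD1 read 29.53 and 34.75 CPM in the TRiC inputs and 14.99 and 13.23 in the PFD inputs. TUBE1 read 10.03 and 10.33 CPM in the TRiC inputs, but 8.237 and 24.82 CPM in the PFD inputs, so its PFD input replicates lay on either side of both TRiC inputs. Per kilobase of coding sequence, the order of mean levels in the TRiC inputs was TUBA1B (110.9 ± 2.61 CPM per kb, SD, n = 2), TUBA1C (67.52 ± 1.03), TUBA1A (59.08 ± 3.42), TUBG1 (56.92 ± 0.742), TUBD1 (23.65 ± 2.72), TUBA4A (9.937 ± 0.195) and TUBE1 (7.144 ± 0.149). In that order TUBA1A and TUBG1 were neighbours whose replicates overlapped. In the PFD inputs the order was TUBA1B (238.2 ± 10.1 CPM per kb), TUBA1C (148.1 ± 4.73), TUBA1A (72.4 ± 8.62), TUBA4A (53.15 ± 13.1), TUBG1 (41.05 ± 6.95), TUBE1 (11.6 ± 8.23) and TUBD1 (10.38 ± 0.916). TUBA4A and TUBG1, and TUBE1 and TUBD1, overlapped between replicates there. These levels do not correct for the unequal share of countable windows.

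**Figure D1:**
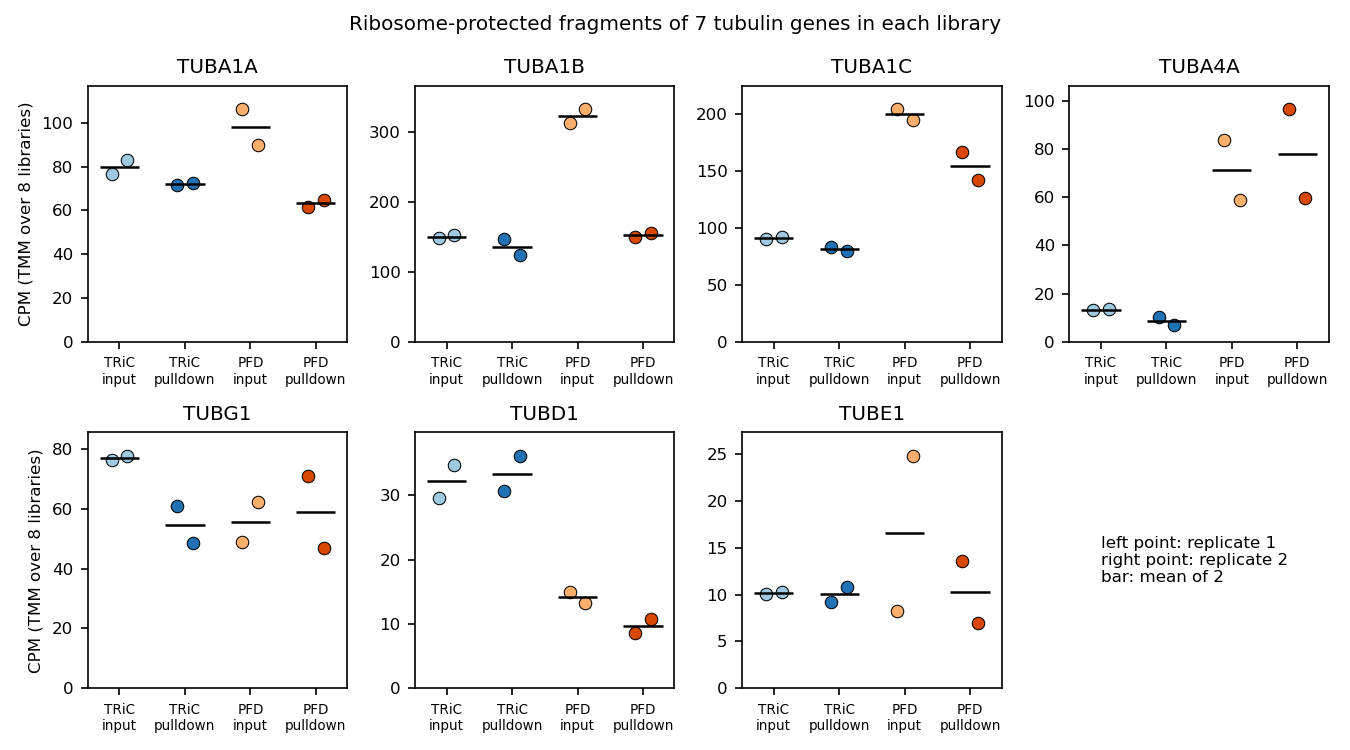
Level of each gene (CPM, TMM over 8 libraries, vertical axis from 0, a scale of its own per panel) in the 4 groups; points are the 2 replicates and bars their mean. TUBA1B stands at 312.6 and 332 CPM in the PFD inputs and between 124 and 155.4 CPM in the other 6 libraries.

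Shares of the 4 alpha-tubulins show the isotype make-up of nascent alpha-tubulin as it can be counted. In the TRiC inputs TUBA1B took 44.9% ± 0.262 (SD, n = 2) of the alpha-tubulin counts, TUBA1C 27.21% ± 0.383, TUBA1A 23.9% ± 0.685 and TUBA4A 3.995% ± 0.0408. In the PFD inputs the shares were 46.69% ± 3.46 for TUBA1B, 28.86% ± 0.00821 for TUBA1C, 14.15% ± 1.24 for TUBA1A and 10.3% ± 2.22 for TUBA4A. Of these shares of counts, TUBA1A was lower and TUBA4A higher in both PFD inputs than in either TRiC input. Dividing each count by the gene's unique windows raised TUBA1B to 63.58% ± 0.261 in the TRiC inputs and 67.18% ± 2.57 in the PFD inputs. On that scale TUBA1A was at 16.56% ± 0.503 and 9.993% ± 1.23, and TUBA4A at 0.8951% ± 0.00761 and 2.357% ± 0.59. Per unique window clear of opposite-strand exons, the TRiC inputs held 69.9% TUBA1B, 23.22% TUBA1C, 6.526% TUBA1A and 0.3528% TUBA4A. On that scale the PFD inputs held 71.15% TUBA1B, 24.15% TUBA1C, 3.798% TUBA1A and 0.8964% TUBA4A, so TUBA1A was lower in the PFD inputs on each matched scale. Whether the same windows were counted in both lines is not known, and setting 9.993% in the PFD inputs beside 6.526% in the TRiC inputs would turn that order. Because the exact permutation test of 2 against 2 samples cannot give a two-sided p below 0.333, the shares are given without a test.

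The TRiC pulldowns were close to their inputs in make-up, with 45.44% ± 2.28 TUBA1B, 27.4% ± 0.932 TUBA1C, 24.3% ± 1.98 TUBA1A and 2.853% ± 0.635 TUBA4A. The PFD pulldowns held 34.26% ± 3.68 TUBA1B and 34.33% ± 1.01 TUBA1C, with 14.21% ± 1.71 TUBA1A and 17.21% ± 4.38 TUBA4A. TUBA1B ranged from 31.65% (95% Clopper-Pearson interval 30.3% to 33.0%) to 36.86% (36.0% to 37.7%) in the PFD pulldowns, and from 44.24% (43.4% to 45.1%) to 49.14% (48.0% to 50.3%) in the PFD inputs, so the groups did not overlap. The intervals cover counting error only. The PFD inputs and pulldowns may not have the same countable windows. Per unique window in the inputs and per clear window in the pulldowns, TUBA1A would stand at 9.993% and 4.399% and TUBA1B at 67.18% and 60.5%. TUBA1C would stand at 20.47% and 33.36% and TUBA4A at 2.357% and 1.742%, which turns the rise in the TUBA4A share of counts. Shares are bound to each other, since a lower TUBA1B count raises the share of every other isotype.

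Other alpha-tubulin genes in the tables bear on these shares. TUBA3C (chr13:19173772-19181824, minus strand), known as a testis isotype, had 1087 to 5545 counts per library, or 17.1% to 32.3% of alpha-tubulin counts when it is included. With TUBA3C in the sum, TUBA1B took 31.72% ± 0.51 in the TRiC inputs and 38.42% ± 2.49 in the PFD inputs, and TUBA1C 19.23% ± 0.151 and 23.76% ± 0.232. In TUBA3C, 55.43% of windows were unique, and its near copies TUBA3D and TUBA3E had at most 12 counts. Apart from TUBA3C and TUBG2, the other coding genes of these families reached at most 51 counts in any library, and the 16 pseudogenes at most 101.

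The TRiC comparison asks whether ribosomes recovered with TRiC carried more or less of each tubulin mRNA than total ribosomes of the same cells. The paper tested single positions along coding sequences instead, and counts tubulins among the nascent-chain interactors that TRiC shares with PFD. Whole-gene counts hold no positions, so the values below do not test that result. TUBG1 and TUBA4A fell in the TRiC pulldown, by 0.49 and 0.63 on the log2 scale, while TUBA1A, TUBA1B, TUBA1C, TUBD1 and TUBE1 did not pass the test. Of 17934 genes tested, 3444 (19.2%) were called at an adjusted p under 0.05, and 10.6% were called lower. The split of 1550 higher and 1894 lower calls turned with the scaling, to 1798 and 1271 with library totals and 1569 and 1349 with cyclic loess. Of the 7 tubulins 2 were called, both lower, and 6 of 7 had log2 fold changes below 0, where the median over all genes tested was -0.003. None was called higher, against 8.64% of all genes.

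TUBG1 read 76.3 and 77.72 CPM in the TRiC inputs and 60.79 and 48.45 CPM in the pulldowns. Both pulldowns lay below both inputs. Here and below, such a separation of groups is description only. An exact permutation test of 2 against 2 libraries cannot give a two-sided p below 0.333. The share of all genes with such a separation was not counted. The log2 fold change was -0.49 (SE 0.106, edgeR quasi-likelihood test, adjusted p = 0.00368), and 9.663% of all genes tested had a lower value. TUBA4A read 13.17 and 13.54 CPM in the inputs and 10.31 and 6.798 CPM in the pulldowns, which also did not overlap, from 173 to 414 counts per library. Its log2 fold change was -0.63 (SE 0.197, edgeR adjusted p = 0.0318). The TUBA4A call was lost with DESeq2 (adjusted p = 0.0633), without either input (0.079 and 0.0927) and without pulldown replicate 2, where the log2 fold change was -0.36 (adjusted p = 0.212). With all 8 libraries in one fit neither gene was called by edgeR (adjusted p = 0.647 for TUBG1 and 0.684 for TUBA4A).

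The 3 abundant alpha-tubulins did not pass the test in TRiC. TUBA1B read 147 and 124 CPM in the TRiC pulldowns, TUBA1C 83.55 and 79.38 CPM, and TUBA1A 71.55 and 72.7 CPM. Each gene's pulldowns lay below its inputs, by little. The log2 fold changes were -0.15 for TUBA1A (95% interval -0.34 to 0.04), -0.15 for TUBA1B (-0.33 to 0.04) and -0.16 for TUBA1C (-0.34 to 0.02), with edgeR adjusted p of 0.269, 0.264 and 0.216. With cyclic loess they shrank to -0.0748, -0.0577 and -0.0824. The TUBA1B value rested on single pulldowns, at -0.285 without replicate 1 (edgeR adjusted p = 0.0095) and -0.0206 without replicate 2 (0.913). TUBD1 read 30.56 and 36.11 CPM and TUBE1 9.185 and 10.85 CPM in the pulldowns, in both cases overlapping the inputs. Their log2 fold changes were 0.05 (95% interval -0.21 to 0.31) and -0.03 (-0.41 to 0.36), with edgeR adjusted p of 0.827 and 0.941.

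The genes that work with these tubulins were read from the same fit, in which 8.64% of all genes were called higher and 10.6% lower. In one fit of all 8 libraries only 31 genes of all were called. Among the 8 beta-tubulin genes tested, TUBB (-0.31), TUBB2B (-0.44), TUBB4B (-0.38) and TUBB6 (-0.34) fell in the TRiC pulldown, and the median of the 8 log2 fold changes was -0.33. TUBA3C, the alpha isotype outside the 7 genes, also fell, by 0.26 on the log2 scale (edgeR adjusted p = 0.0387). Of the 7 tubulin folding cofactors, TBCB (-0.58), which binds alpha-tubulin, and the small GTPase ARL2 (-0.52) fell and TBCEL (1.26), which destabilizes tubulin, rose, with a median of 0.04. Of 10 gamma-tubulin ring components, TUBGCP5 (0.38) and TUBGCP6 (0.50) rose and the small subunit MZT2A (-0.56) fell, with a median of 0.05. SCAPER (0.73), which links TTC5 to the deadenylase in tubulin mRNA decay, rose, while TTC5 itself (0.14) was not called. Among 13 enzymes that modify alpha-tubulin, the glutamylase TTLL5 (0.45) rose and TTLL12 (-0.40) fell, with a median of -0.05. Neither TEDC1 nor TEDC2, partners of delta- and epsilon-tubulin, was called.

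**Figure D2:**
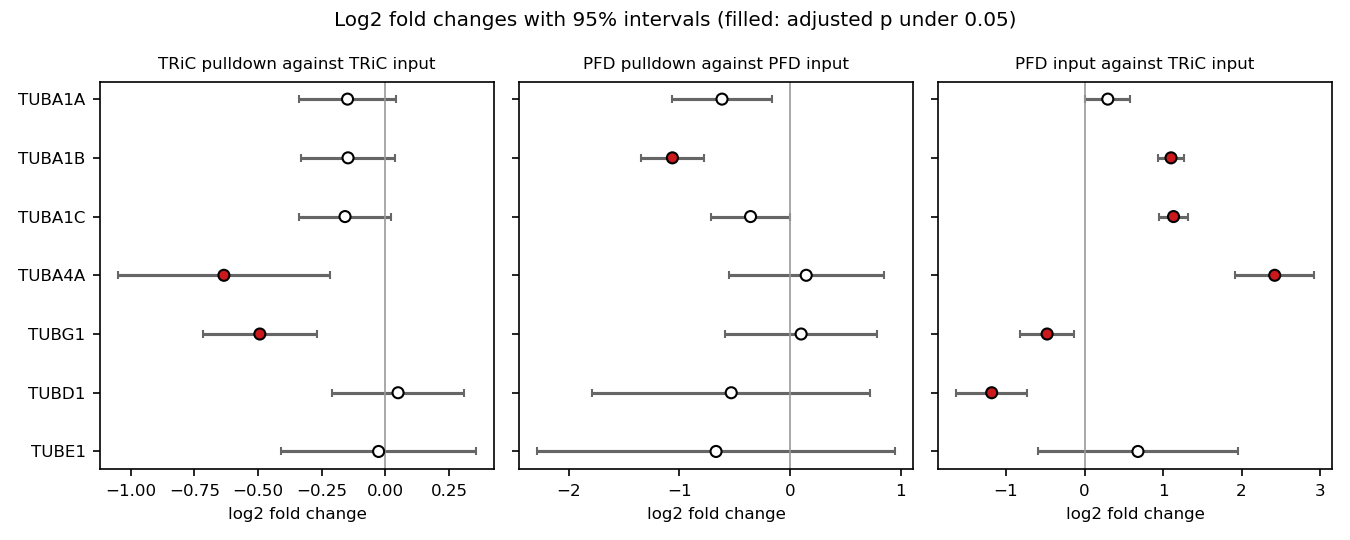
Log2 fold change (horizontal axis) of each gene with its 95% interval from edgeR, for each pulldown against its input and for the PFD inputs against the TRiC inputs; filled points had an adjusted p under 0.05. The intervals are wider in the PFD comparison, where TUBA1B is the one filled point, at -1.06; the horizontal scales differ between panels.

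The PFD comparison puts the same question to ribosomes recovered with prefoldin. TUBA1B fell in the PFD pulldown, by 1.06 on the log2 scale, to a level close to that of the TRiC libraries. None of the other 6 genes passed the test. Of 14111 genes tested, 34 (0.241%) were called with 0.0496% called higher and 0.191% lower (134 genes with a replicate block), so 1 of the 7 tubulins was called where few genes were. The common dispersion, edgeR's squared coefficient of variation between replicates, was 0.331 against 0.0153 in the TRiC fit, and the intervals of the less abundant genes were correspondingly wide.

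TUBA1B read 312.6 and 332 CPM in the PFD inputs and 150.3 and 155.4 CPM in the pulldowns. The groups did not overlap, a separation whose share over all genes was not counted, and each replicate pair lay close together. The log2 fold change was -1.06 (SE 0.124, 95% interval -1.35 to -0.78, edgeR adjusted p = 0.0218), and it stayed called in all 11 alternatives run (adjusted p from 5.47e-21 to 0.0175). Genes with more exon bases under opposite-strand exons had lower values in this comparison. The median log2 fold change was 0.01 for 7246 coding genes with no such overlap, -0.16 for 463 genes with 25 to 50% of exon bases covered, -0.47 for 88 genes at 50 to 75% and -1.26 for 26 genes at 75 to 100%. In the TRiC comparison the same groups had medians of -0.04, -0.09, -0.12 and -0.18. TUBA1B, with 44% of its exon bases covered, lay in the 25 to 50% group, where 12.5% of genes had a lower value in the PFD comparison. By coding bases its cover was 68.1%, and the lower quartile of the genes at 50 to 75% exon cover was -1.16, below the TUBA1B value. The clear windows of TUBA1B over its unique windows, 57 against 159, come to -1.48 on the log2 scale, which is larger in size than the measured -1.06. The same ratio is -1.64 for TUBA1C and 0 for TUBA1A, where the measured values were -0.36 and -0.62. The part of the overlap in the TUBA1B result was not tested.

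**Figure D3:**
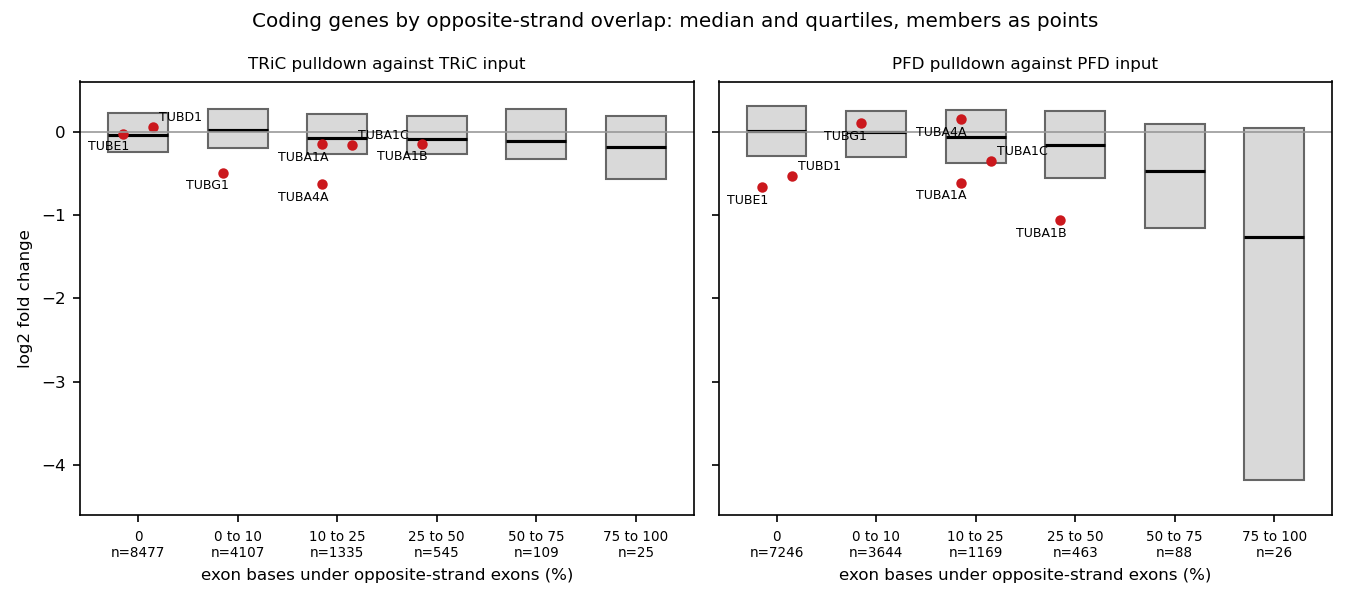
Log2 fold change (vertical axis) of coding genes grouped by the share of exon bases under opposite-strand exons (%, horizontal axis, n below each group); boxes span the quartiles, black lines are medians and red points the 7 genes. In the PFD comparison the medians descend from 0.01 to -1.26, and TUBA1B (-1.06), placed by its exon cover of 44%, lies below the box of its group but within the range of the box at 50 to 75%; its coding cover is 68.1%.

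TUBA1A read 106.2 and 89.71 CPM in the PFD inputs and 61.75 and 64.97 CPM in the pulldowns, and TUBA1C read 204 and 195 against 166.4 and 141.7 CPM. Both genes had pulldowns below both inputs. Neither was called by edgeR, with log2 fold changes of -0.62 for TUBA1A (95% interval -1.07 to -0.16, adjusted p = 0.679) and -0.36 for TUBA1C (-0.72 to 0.00253, adjusted p = 0.72). TUBA1A passed with DESeq2 (adjusted p = 0.0144) and in edgeR without pulldown replicate 2 (0.0454), and TUBA1C passed in edgeR without pulldown replicate 1 (-0.524, adjusted p = 0.0275) but was at -0.212 without replicate 2 (adjusted p = 0.335). TUBA1C has 42.4% of its windows under opposite-strand exons and TUBA1A 0.2257%.

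TUBA4A read 96.47 and 59.5 CPM in the PFD pulldowns and TUBG1 70.9 and 46.74 CPM, in each case on either side of an input value. Their log2 fold changes were 0.15 (95% interval -0.55 to 0.85) and 0.10 (-0.69 to 0.79). TUBD1 read 8.626 and 10.73 CPM in the pulldowns, below both inputs, with a log2 fold change of -0.53 (-1.79 to 0.73). TUBE1 read 13.57 and 6.993 CPM, overlapping the inputs, with a log2 fold change of -0.67 (-2.29 to 0.95). The edgeR adjusted p of these 4 genes lay between 0.945 and 0.987. TUBD1 and TUBE1 had 82 to 296 counts per PFD library, and a 2-fold fall lies within the interval of each.

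No gene of the tubulin partner lists was called in the PFD comparison, in which 0.241% of all genes were, too few to read anything from it. The 8 beta-tubulins tested had a median log2 fold change of 0.36, with TUBB at -0.07, TUBB4B at 0.19 and TUBB6 at 0.18, while the 4 alpha-tubulins had a median of -0.49. TUBA3C, the alpha isotype outside these 4, was at 0.095 (edgeR adjusted p = 0.979). The median over all genes tested was 0. TUBB, TUBB4B and TUBB6 together had 5.05 and 5.18 times the counts of the 4 alpha-tubulins in the PFD inputs and 7.53 and 8.71 times in the pulldowns. The other beta-tubulins and TUBA3C were not in these sums. For TRiC that ratio was 9.78 and 9.28 in the inputs, against 8.46 and 8.47 after pulldown. Ratios of counts carry the unequal share of unique windows of both families. The PFD inputs and pulldowns may also differ in countable windows. Clear of opposite-strand exons were 57 of 159 unique windows in TUBA1B, 104 of 323 in TUBA1C and 289 of 507 in TUBB. The part of this in the higher ratio, and in the alpha and beta medians, of the PFD comparison was not tested.

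The interaction over all 8 libraries tests whether a gene's enrichment differed between TRiC and PFD. It called none of the 7 tubulins, and 7 of 18855 genes (0.0371%) in all, 0.0212% with a higher and 0.0159% with a lower enrichment in TRiC. TUBA1B had the largest difference among the 7, a TRiC minus PFD value of 0.93 on the log2 scale (SE 0.148, 95% interval 0.59 to 1.27, unadjusted p = 0.000218, edgeR adjusted p = 0.12). It was called in 4 of 12 alternatives, with adjusted p from 1.36e-05 to 0.666. The other 6 genes had differences between -0.76 (TUBA4A) and 0.66 (TUBE1), with edgeR adjusted p between 0.299 and 0.762. Leaving out 1 library moved TUBA4A between -1.1 and -0.362 and TUBG1 between -0.835 and -0.248, and TUBG1 was called without PFD pulldown replicate 2 (edgeR adjusted p = 0.0344). In edgeR, 2791 of all genes had an unadjusted p under 0.05, with TUBA1A and TUBA1B among them. In the main edgeR fit, the TRiC calls of TUBG1 and TUBA4A and the PFD call of TUBA1B were not shown to differ between chaperones. The TUBA1B difference was called on the same 8 libraries with DESeq2 (0.92, adjusted p = 1.36e-05). It was also called in edgeR without the filter on low counts (0.9, adjusted p = 0.000689). Library totals and the replicate block did not call it (edgeR adjusted p = 0.113 and 0.3).

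The inputs of both lines were compared with each other, which shows how far the starting levels differ. TUBA4A, TUBA1B and TUBA1C were higher, and TUBG1 and TUBD1 lower, in the PFD inputs. Of 16341 genes tested, 6583 (40.3%) were called, 17.7% higher and 22.6% lower, and 5 of the 7 tubulins were called. TUBA4A was 5.364-fold higher (log2 fold change 2.42, SE 0.201, edgeR adjusted p = 0.000779), and 97.35% of genes had a lower value. TUBA1B and TUBA1C were 2.147-fold and 2.194-fold higher (edgeR adjusted p = 0.000322 and 0.000371). TUBD1 fell by 1.18 on the log2 scale (SE 0.182, edgeR adjusted p = 0.00581) and TUBG1 by 0.48 (SE 0.14, adjusted p = 0.0416). TUBA1A (0.30, adjusted p = 0.0932) and TUBE1 (0.68, adjusted p = 0.343) did not pass in edgeR. TUBA1A passed with DESeq2 (adjusted p = 0.0221) and in edgeR without PFD input replicate 2 (0.38, adjusted p = 0.00118), and was at 0.156 without replicate 1 (adjusted p = 0.183).

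The TUBG1 call was lost with library totals (adjusted p = 0.0536), with all 8 libraries in one fit (0.169) and without either TRiC input (0.119 and 0.16). TUBE1 turned with 1 library, to 1.27 (edgeR adjusted p = 1e-07) without PFD input replicate 1 and to -0.33 without replicate 2. Line and table are the same split here, so the cell line and the processing of each table cannot be told apart. The counts at fully covered genes set the PFD inputs apart from the PFD pulldowns of the same table as well. By opposite-strand cover of exon bases, the median log2 fold change of the PFD inputs over the TRiC inputs was -0.12 with none, -0.05 at 25 to 50%, 0.53 at 50 to 75% and 1.27 at 75 to 100%. The PFD pulldowns, which lacked counts at the fully covered genes like the TRiC libraries, had TUBA1B at 150.3 and 155.4 CPM, close to the TRiC inputs, but TUBA1C at 166.4 and 141.7 CPM and TUBA4A, with 0 coding windows under opposite-strand exons, at 96.47 and 59.5 CPM, above every TRiC library. Of 6 mesenchymal markers tested, ALPL (3.87), COL1A1 (0.42) and VIM (0.21) were higher and SPARC (-0.47) was lower in the PFD inputs, while RUNX2 (-0.10) and COL1A2 (-0.61) were not called. Of 4 other markers tested, KRT8 (2.19) was higher, EPCAM (0.70) was not called, and the endothelial CDH5 and PECAM1 were lower, having at most 275 and 68 counts in any library. The part of these differences in the tubulin values was not tested. Fewer cells that translate a gene and fewer RPFs per cell cannot be told apart in such bulk libraries.

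Partner genes differed between the inputs too. TEDC1 (-0.86) and TEDC2 (-1.14), whose proteins form a complex with delta- and epsilon-tubulin, were both lower in the PFD inputs, as TUBD1 was, while TUBE1 (0.68) was above 0 and not called. TUBG2, the near copy of TUBG1, had 186 and 203 counts in the TRiC inputs, 10 and 7 in the PFD inputs and 0 in both PFD pulldowns, and its log2 fold change between inputs was -3.46 (SE 0.516, edgeR adjusted p = 0.00523). Of 10 ring components, TUBGCP2 (0.85) and MZT2B (0.76) were higher and TUBGCP4 (-0.47) and CDK5RAP2 (-0.38) lower. Of 7 folding cofactors, TBCC (1.04) and TBCD (0.47) were higher and ARL2 (-1.33) lower. Of 13 alpha-tubulin modifiers 4 were higher and 5 lower, and the largest differences were in the detyrosinating enzyme VASH2 (-4.93), the deacetylase HDAC6 (-2.95), the glutamylase subunit TTLL1 (-2.42) and VASH1 (-1.33). Of 7 beta-tubulins tested, TUBB (0.24) was higher and TUBB2B (-2.47) and TUBB4A (-2.44) lower. The values in this paragraph are log2 fold changes of PFD input over TRiC input, whose median over all genes was -0.11, with 17.7% of all genes tested called higher and 22.6% lower.

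Genes with the pattern across libraries most like TUBA1B, TUBA1C and TUBG1 were sought among 11266 genes with a mean of at least 100 counts, by Pearson correlation of log2 CPM over the 8 libraries. For TUBA1B they were PPIB (r = 0.9901), H2AC15 (0.9828) and NKRF (0.9812). For TUBA1C they were MTMR6 (0.9945), YRDC (0.994) and RPL30 (0.9924), and for TUBG1 CYB561D2 (0.9909), ALDH2 (0.9661) and HES1 (0.9626). Among the 7 genes, TUBA1C followed TUBA4A (r = 0.9563) more closely than TUBA1B (0.8061) or TUBA1A (0.357), and it ran against TUBD1 (-0.8665). The 8 points share 2 lines and 4 groups, so these values describe these libraries and carry no test.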

How the data were processed

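RPF counts were analysed in 8 libraries, 2 replicates of each of 4 groups. Per the labels and the methods, the authors extracted molecular identifiers with UMI-tools, removed non-coding RNA with Bowtie2 2.4.2 and aligned to hg38 with STAR 2.7.10a, with up to 2 mismatches and multi-mapping reads dropped. Deposited were raw whole-number counts per gene, in a table for each line. The annotation release and the strand column are not given in the sources used here. Of 60664 identifiers, 60463 matched GENCODE release 44.

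Within a line, pulldown was tested against input by edgeR 4.0.16 (R 4.3.3, TMM, filterByExpr, glmQLFit, glmQLFTest, Benjamini-Hochberg over all genes tested), and the interaction over the 8 libraries. Alternatives were library totals, cyclic loess (limma 3.58.1), DESeq2 1.42.0, no filter, at least 100 counts, a replicate block, one fit over the 8 libraries, and each library left out. The methods call the replicates biological without saying what was repeated, so p-values measure the spread between these samples. The 28-base windows were matched without mismatches, with 25 and 30 bases as alternatives, and intervals on shares are exact at 95%. Members, lists and tests were chosen with earlier results of these data known. Named were the 7 genes, other tubulins by counts, the called genes of each list (the 4 largest changes where more were called), opposite-strand neighbours and the 3 genes most like TUBA1B, TUBA1C and TUBG1. Genes of the marker lists, the fully covered genes and uncalled partners named with values were chosen after their values were seen. Some coding sequences of the alpha-tubulins are not reported here.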

Additional observations from a re-analysis of the deposited data

How the results depend on the processing

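The fall of TUBA1B in the PFD pulldown, and the higher TUBA1B, TUBA1C and TUBA4A and lower TUBD1 in the PFD inputs, kept their direction and call in all 11 alternatives run. Over the libraries left out in turn, the genes called numbered 1698 to 4698 in the TRiC comparison (1 to 3 of the 7 tubulins), 71 to 2434 in the PFD comparison (1 to 2), 0 to 3931 in the interaction (0 to 2) and 3626 to 11084 between the inputs (4 to 6). A group left with 1 library was assumed to vary like the others. With all 8 libraries in one fit, 31 genes and 0 tubulins were called for TRiC, 83 genes for PFD and 3858 genes between the inputs. DESeq2 called 1 tubulin for TRiC, 533 genes and 2 tubulins for PFD, and 985 genes and 1 tubulin in the interaction. Without the filter on low counts, 152 genes were called for PFD, and 511 genes and 1 tubulin in the interaction. With the replicate block, 4689 genes were called for TRiC, 134 for PFD and 0 in the interaction (7 in edgeR without it, where 2791 had an unadjusted p under 0.05), and the calls of the 7 tubulins did not change. Replicates of the same number deviated together with r = 0.196 for TRiC and -0.022 for PFD. Input RNA came from ribosome pellets also used for pulldown, but no label says that a number marks a shared pellet, so the pairing is not settled. TUBE1 in TRiC turned to 0.0194 with library totals and to 0.0374 with at least 100 counts. With at least 100 counts required, TUBD1 could not be tested in PFD (82 counts in a pulldown). Without single libraries, log2 fold changes changed sign for TUBD1 (-0.0643 to 0.161) and TUBE1 (-0.139 to 0.0821) in TRiC, for TUBG1 (-0.28 to 0.40), TUBA4A (-0.29 to 0.48) and TUBE1 (-1.28 to 0.34) in PFD, and for TUBE1 in the interaction (-0.35 to 1.25) and between the inputs (-0.33 to 1.27). The cause was not tested. The TUBA1B share in the TRiC inputs was 63.58% per unique window, 69.9% per unique window clear of opposite-strand exons and 31.72% with TUBA3C, and in the PFD inputs 67.18%, 71.15% and 38.42%. The last 2 alternatives were chosen after seeing the data. TUBD1 and TUBE1 had 82 to 1063 counts per library, and TUBE1 read 8.237 and 24.82 CPM in the PFD inputs, so the spread between replicates exceeds the counting error there. Whole-gene counts hold no positions, so binding over a short stretch of a coding sequence may not show.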
